A study of Homo sapiens with 11 samples.

Results

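The 9 genes described here encode the enzymes that make serine and pass its single carbon units through folate. PHGDH, PSAT1 and PSPH carry out serine synthesis, SHMT1 and MTHFD1 work in the cytosol, and SHMT2, MTHFD2, MTHFD1L and ALDH1L2 work in mitochondria. They were taken by name, as the rows of the deposited gene table whose Ensembl identifier maps to these symbols, and all 9 were found among 60612 gene rows. HCT-116 and RKO, established colorectal cancer lines grown in DMEM with serum, were each exposed to phenylacetaldehyde (PAA), an aromatic aldehyde, for 24 h, or kept in medium with 0.1% DMSO as the vehicle. The 11 libraries formed 4 groups: HCT-116 with DMSO (n = 3), HCT-116 with PAA (n = 3), RKO with DMSO (n = 2, replicates 2 and 3) and RKO with PAA (n = 3). Neither the PAA dose nor the vehicle's exposure time is stated in the sources used here. Nothing in the labels ties replicates to separate cultures, so the spread between them, on which every p-value rests, may be technical.

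Serine is built from a glycolytic intermediate: PHGDH oxidises phosphoglycerate, PSAT1 transfers an amino group from glutamate to the product, and PSPH removes the phosphate. SHMT enzymes then split serine into glycine and a carbon unit held on tetrahydrofolate. In mitochondria MTHFD2 and MTHFD1L turn that unit into formate, which MTHFD1 in the cytosol reloads onto folate for purine and thymidylate synthesis, and ALDH1L2 can oxidise it to carbon dioxide. The transcription factors ATF4, MYC and NRF2 (encoded by NFE2L2) are known to act on several of these genes, and MTHFD2 and SHMT2 are often high in tumours, colorectal ones included.

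Over the libraries, the estimated depth was 13650000 to 22780000 fragments and 11634 to 12133 genes reached 1 FPKM (fragments scaled by transcript length and library depth). Mitochondrially encoded genes took 38.2% to 40.2% of all FPKM in HCT-116 with DMSO and 31.2% to 31.4% with PAA, and 33.8% to 34.9% in RKO with DMSO and 18.2% to 18.5% with PAA. Scaling each library to a common total that leaves those genes out gave 4 members higher and 2 lower with PAA in HCT-116, where 2492 of all 13881 genes tested were higher and 4079 lower, and 6 and 2 in RKO, where 3205 genes were higher and 2077 lower. Of 9 colorectal epithelium markers, 5 exceeded 1 FPKM in every HCT-116 library and 4 in every RKO library; CDH1 was at most 0.127 FPKM in RKO, and KRT20, CDX1, VIL1 and LGALS4 were below 1 in both lines. Summed over the list, these markers came to 361 to 414 FPKM in HCT-116 with DMSO, 344 to 351 with PAA, 32.4 to 34.1 in RKO with DMSO and 31.4 to 33.5 with PAA. Markers of other cell types, 7 in all, summed to at most 4.19 FPKM in HCT-116 and 0.967 in RKO, and PTPRC, CD3E and MS4A1 were listed at 0 throughout. In bulk RNA, fewer cells expressing a gene and less of its RNA per cell cannot be told apart.

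Promoters were held by RefSeq's table for 6 of the 9 members. The 250 bases before the RefSeq start are shown for PHGDH, PSAT1 and MTHFD2, which rose with PAA in both lines, and for MTHFD1, which fell in both. They are on the plus strand of GRCh38.p14, 5′ to 3′, at chr1:119711684-119711933 for PHGDH, chr9:78296875-78297124 for PSAT1, chr2:74198365-74198614 for MTHFD2 and chr14:64388103-64388352 for MTHFD1. Capitals mark the E-box, a motif that MYC and related factors bind.
PHGDH: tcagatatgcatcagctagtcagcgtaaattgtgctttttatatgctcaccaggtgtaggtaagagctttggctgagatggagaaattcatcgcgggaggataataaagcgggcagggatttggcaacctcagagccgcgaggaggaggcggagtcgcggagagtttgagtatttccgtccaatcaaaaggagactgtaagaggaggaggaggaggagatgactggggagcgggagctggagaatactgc
PSAT1: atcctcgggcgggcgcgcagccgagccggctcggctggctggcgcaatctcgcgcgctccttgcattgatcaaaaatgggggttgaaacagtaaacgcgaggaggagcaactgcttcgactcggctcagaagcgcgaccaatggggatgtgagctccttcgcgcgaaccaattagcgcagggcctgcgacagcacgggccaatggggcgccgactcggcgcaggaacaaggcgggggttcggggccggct
MTHFD2: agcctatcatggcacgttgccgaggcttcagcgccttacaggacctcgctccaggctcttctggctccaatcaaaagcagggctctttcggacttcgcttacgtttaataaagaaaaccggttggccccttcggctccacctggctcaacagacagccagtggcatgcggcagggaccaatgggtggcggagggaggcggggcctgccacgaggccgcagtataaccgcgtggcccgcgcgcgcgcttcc
MTHFD1: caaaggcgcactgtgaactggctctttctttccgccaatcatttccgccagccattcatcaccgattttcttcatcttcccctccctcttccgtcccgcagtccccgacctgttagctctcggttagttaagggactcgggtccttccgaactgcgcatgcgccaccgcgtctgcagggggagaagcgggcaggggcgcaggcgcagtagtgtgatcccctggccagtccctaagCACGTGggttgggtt

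GC content was 51.2% in the PHGDH window, 65.6% in that of PSAT1, 62.4% in that of MTHFD2 and 60.0% in that of MTHFD1. Each promoter, with the first bases after the start added, was searched on both strands for 3 motifs. The core of the ATF4 and C/EBP composite element, TGATGNAA, was found in 1 of the 6 members, against 3.6% of 35116 promoters of the same 300 bases. That match, TGATGCAA, lay 25 bases after the start of MTHFD1L. The E-box CACGTG was found in 2 of the 6, against 7.3% of promoters: 15 bases before the start of MTHFD1, as capitalised above, and across the start of MTHFD1L. The antioxidant response element core, TGACNNNGC, was found in 1 of the 6, against 13.3% of promoters. That match was on the minus strand, 7 bases after the start of MTHFD2, outside the window shown. PHGDH, PSAT1 and SHMT1 held none of the 3 motifs in these 300 bases.

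With PAA the serine synthesis genes and MTHFD2 and MTHFD1L rose in both lines. The PSPH call in HCT-116 was lost with some libraries left out. The cytosolic enzymes SHMT1 and MTHFD1 fell in both lines (SHMT1 in RKO not when FPKM totals were made equal), and SHMT2 rose in RKO. Of the 8 members with enough signal to be tested (at least 1 FPKM in at least 2 libraries), 5 rose and 2 fell in HCT-116 at an adjusted p under 0.05, and 6 rose and 2 fell in RKO. PAA moved much of the transcriptome: of 13881 genes tested, 47.1% passed in HCT-116 (21.7% higher, 25.3% lower) and 40.0% in RKO (25.7% higher, 14.3% lower). The PAA and DMSO libraries did not overlap for 7 of the 8 members in HCT-116 and 8 of 8 in RKO, against 56.5% and 61.6% of all genes tested. The median log2 fold change of the 8 was 0.22 in HCT-116, against -0.01 over all genes tested, and 0.76 in RKO, against 0.06. Fold changes are on the log2(FPKM + 1) scale, which understates changes of low genes, and adjusted p-values are from limma's moderated test with Benjamini-Hochberg adjustment over the 13881 genes.

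**Figure D1:**
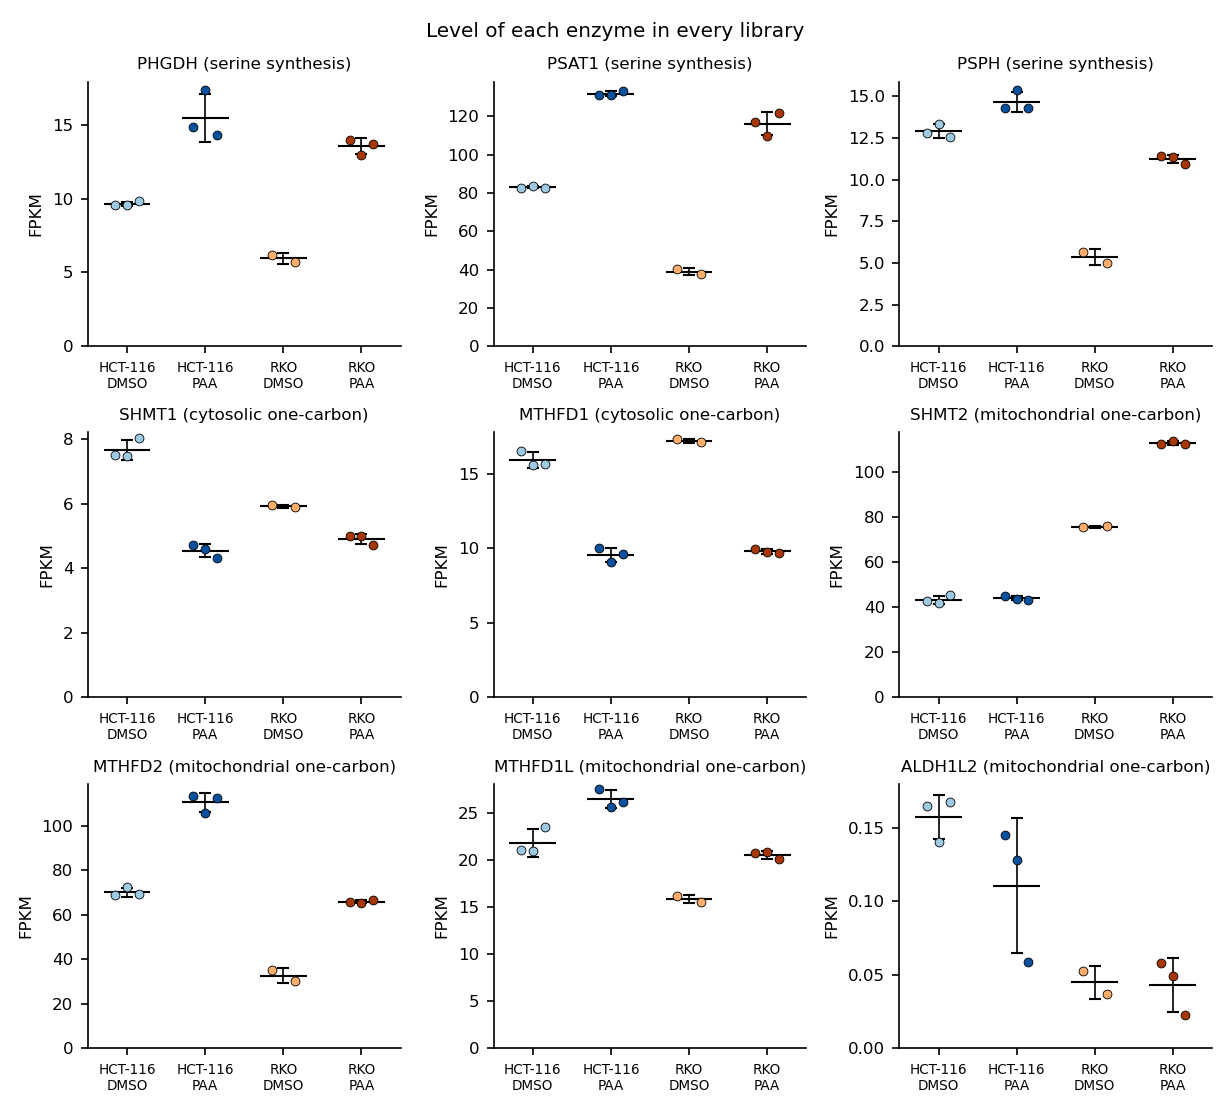
FPKM of each of the 9 enzymes (vertical axes from 0) in the 4 groups, 1 point per library, with the group mean as a line and its SD as a bar. PSAT1 sits at 131 to 133 with PAA in HCT-116 and at 109.7 to 122 in RKO, above all DMSO libraries, and SHMT1 and MTHFD1 sit lower with PAA in both lines (for SHMT1 in RKO not when FPKM totals were made equal).

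PHGDH, the dehydrogenase that opens the serine pathway, lies on chromosome 1 (119648411 to 119744226, plus strand, GRCh38). In HCT-116 it was at 9.58, 9.56 and 9.80 FPKM in the DMSO libraries (replicates 1, 2 and 3) and at 14.8, 17.3 and 14.3 with PAA. In RKO it was at 6.21 and 5.70 with DMSO (replicates 2 and 3) and at 14.0, 12.9 and 13.7 with PAA. Every PAA library was above every DMSO library of both lines. It rose by a log2 fold change of 0.63 ± 0.07 (SE) in HCT-116 (adjusted p = 7.05e-05) and 1.06 ± 0.08 in RKO (adjusted p = 1.04e-05).

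PSAT1, the aminotransferase, lies on chromosome 9 (78297143 to 78330093, plus strand) and had the highest FPKM of the serine synthesis genes in every library. It was at 82.4, 83.6 and 82.8 FPKM in HCT-116 with DMSO and at 131, 131 and 133 with PAA. The RKO libraries held 40.2 and 37.7 FPKM with DMSO and 117, 109.7 and 122 with PAA. The groups were far apart in both lines: the mean was 1.59-fold higher with PAA in HCT-116 and 2.98-fold higher in RKO. On the log2 scale it rose by 0.66 ± 0.04 in HCT-116 (adjusted p = 2.05e-06) and by 1.55 ± 0.05 in RKO (adjusted p = 5.59e-08). Ordered by log2 fold change from the top, it was gene 607 of 13881 in HCT-116 and gene 48 in RKO.

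PSPH, the phosphatase that releases serine, lies on chromosome 7 (56011051 to 56051604, minus strand). It was at 12.8, 13.4 and 12.6 FPKM in HCT-116 with DMSO and at 14.3, 15.4 and 14.3 with PAA. The groups did not overlap, but the log2 difference was small, 0.17 ± 0.05 (adjusted p = 0.0196). The call was lost without DMSO replicate 1 (0.17, adjusted p = 0.0529), without DMSO replicate 3 (0.15, adjusted p = 0.0637), without PAA replicate 2 (0.14, adjusted p = 0.0689) and with totals of nuclear genes made equal (0.11, adjusted p = 0.129). In RKO PSPH was at 5.69 and 5.0 FPKM with DMSO and at 11.4, 11.3 and 11 with PAA. All PAA libraries were well above the DMSO ones, and it rose by 0.95 ± 0.06 (adjusted p = 3.53e-06). Its copy PSPHP1, at 2.41 to 4.28 FPKM, was the only one of 14 pseudogenes named after members to exceed 1 FPKM in any library; reads it shares with PSPH could have been split between them.

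The cytosolic enzymes went the other way. SHMT1, which splits serine in the cytosol (chromosome 17, 18327860 to 18363563, minus strand), was at 7.50, 7.46 and 8.02 FPKM in HCT-116 with DMSO and at 4.73, 4.59 and 4.32 with PAA. In RKO it was at 5.95 and 5.89 FPKM with DMSO and at 5.0, 5.0 and 4.73 with PAA. No PAA library reached a DMSO library of its line, and the gap was wider in HCT-116. It fell by 0.64 ± 0.04 on the log2 scale in HCT-116 (adjusted p = 3.94e-06) and by 0.23 ± 0.05 in RKO (adjusted p = 0.00526). The RKO change depended on scaling: with FPKM totals made equal it was 0.014 (adjusted p = 0.885), where the median of all genes tested moved from 0.06 to 0.28. SHMT1 exons overlap those of SMCR8 on the other strand, and the use of strand is not given in the sources used here, so reads of the pair cannot be told apart. SMCR8 was at 5.54 to 15.7 FPKM and rose by 0.37 in HCT-116 (adjusted p = 8.72e-05) and by 0.55 in RKO (adjusted p = 2.49e-05), opposite to SHMT1; its part in the SHMT1 values was not tested.

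MTHFD1, the cytosolic enzyme that joins formate to folate and interconverts the products (chromosome 14, 64388031 to 64463457, plus strand), was at 16.6, 15.6 and 15.6 FPKM in HCT-116 with DMSO and at 10.0, 9.08 and 9.61 with PAA. RKO cells showed 17.3 and 17.1 FPKM with DMSO and 9.98, 9.74 and 9.70 with PAA. All PAA libraries of both lines lay below all DMSO libraries. It fell by 0.68 ± 0.04 in HCT-116 (adjusted p = 1.88e-06) and by 0.75 ± 0.05 in RKO (adjusted p = 4.24e-06). The antisense neighbour ZBTB25, whose exons overlap it, was at 1.04 to 1.94 FPKM.

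SHMT2, the mitochondrial counterpart of SHMT1 (chromosome 12, 57229327 to 57234935, plus strand), separated the lines. In HCT-116 it was at 42.5, 41.6 and 45.2 FPKM with DMSO and at 44.9, 43.8 and 43.2 with PAA. These groups overlapped, and the log2 difference was 0.03, with a 95% interval of -0.05 to 0.11 (adjusted p = 0.545). In RKO it was at 75.3 and 76.0 FPKM with DMSO and at 112, 114 and 112 with PAA, without overlap, a rise of 0.57 ± 0.04 (adjusted p = 7.33e-06). With FPKM totals made equal, the HCT-116 difference was 0.14 and passed (adjusted p = 0.027), where the median of all genes tested moved from -0.01 to 0.07. With totals of nuclear genes made equal, the HCT-116 difference was -0.033 and did not pass (adjusted p = 0.5).

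MTHFD2, the mitochondrial dehydrogenase and cyclohydrolase (chromosome 2, 74198562 to 74217565, plus strand), was at 68.7, 72.3 and 69.2 FPKM in HCT-116 with DMSO and at 113, 106 and 113 with PAA. Values in RKO were 35.1 and 30.2 FPKM with DMSO and 65.8, 65.1 and 66.6 with PAA. The PAA libraries of RKO came close to the vehicle libraries of HCT-116 without reaching them. It rose by 0.65 ± 0.05 in HCT-116 (adjusted p = 1.3e-05) and by 0.99 ± 0.06 in RKO (adjusted p = 4.09e-06).

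MTHFD1L, which releases formate from folate in mitochondria (chromosome 6, 150865549 to 151101887, plus strand), rose less. It was at 21.1, 21.0 and 23.6 FPKM in HCT-116 with DMSO and at 27.6, 25.7 and 26.2 with PAA. The RKO values were 16.2 and 15.6 FPKM with DMSO and 20.8, 20.9 and 20.1 with PAA. The groups did not overlap in either line, and the rise was 0.27 ± 0.05 in HCT-116 (adjusted p = 0.00178) and 0.35 ± 0.05 in RKO (adjusted p = 0.000931). ALDH1L2, the mitochondrial formyl-folate dehydrogenase (chromosome 12, 105019784 to 105084577, minus strand), was near the bottom of the scale. It was at 0.165, 0.140 and 0.167 FPKM in HCT-116 with DMSO, at 0.145, 0.128 and 0.0585 with PAA, at 0.0528 and 0.0367 in RKO with DMSO and at 0.0576, 0.0492 and 0.0224 with PAA. The PAA and DMSO groups overlapped in both lines, and ALDH1L2 was the 1 member that did not reach the minimum for testing. Without that minimum its adjusted p was 0.213 in HCT-116 and 1 in RKO.

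**Figure D2:**
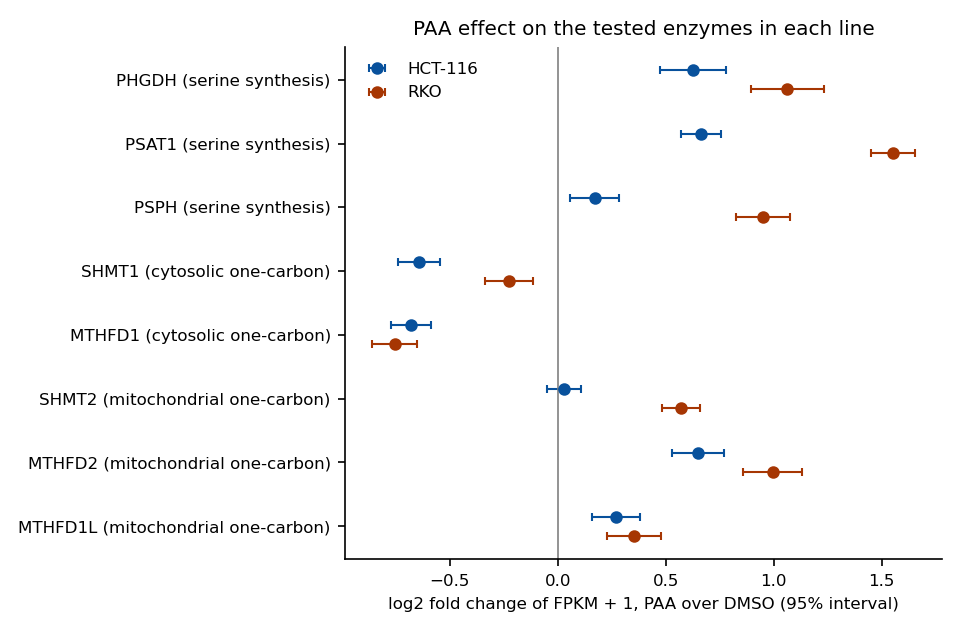
PAA effect on the 8 tested enzymes (horizontal axis, log2 fold change of FPKM + 1 with its 95% interval) in HCT-116 and RKO. PSAT1 in RKO lies farthest right at 1.55, the SHMT1 and MTHFD1 intervals lie below 0 in both lines (in RKO the SHMT1 change was 0.014 with FPKM totals made equal), and the SHMT2 interval in HCT-116 spans 0.

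The response differed between the lines for 6 of the 8 tested members, each higher in RKO than in HCT-116 on the log2 scale, where 31.0% of all genes tested differed (21.3% in that direction and 9.68% in the other). The PSAT1 effect was larger in RKO by 0.89 ± 0.06 (adjusted p = 1.4e-05), that of PSPH by 0.78 ± 0.07 (adjusted p = 9.77e-05) and that of SHMT2 by 0.54 ± 0.05 (adjusted p = 8.99e-05). PHGDH rose more in RKO by 0.44 ± 0.10 (adjusted p = 0.0103) and MTHFD2 by 0.34 ± 0.08 (adjusted p = 0.0108). With isoform sums the PHGDH call was lost (0.57, adjusted p = 0.0517). With the replicate number as a block neither PHGDH (adjusted p = 0.0739) nor MTHFD2 (adjusted p = 0.0797) passed. SHMT1 fell less in RKO, a difference of 0.41 ± 0.07 (adjusted p = 0.00154). For MTHFD1 the difference was -0.07, with a 95% interval of -0.21 to 0.07 (adjusted p = 0.412), and for MTHFD1L 0.09, with an interval of -0.08 to 0.25 (adjusted p = 0.434). The median difference was 0.43 over the 8 members and 0.08 over all genes tested.

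RKO started from lower levels of most of these genes. In vehicle, 6 of the 8 tested members were lower in RKO than in HCT-116 and 1 was higher, where 64.1% of all genes tested differed (33.4% higher and 30.7% lower). PSPH differed by -1.14 ± 0.06 on the log2 scale (adjusted p = 1.13e-07), MTHFD2 by -1.08 ± 0.06 (adjusted p = 2.63e-07), PSAT1 by -1.07 ± 0.05 (adjusted p = 3.92e-08) and PHGDH by -0.62 ± 0.08 (adjusted p = 7.19e-05). MTHFD1L differed by -0.43 ± 0.05 (adjusted p = 9.01e-05) and SHMT1 by -0.32 ± 0.05 (adjusted p = 0.000297). SHMT2 was higher in RKO by 0.80 ± 0.04 (adjusted p = 9.41e-08). MTHFD1 differed by 0.11 ± 0.05 (adjusted p = 0.0684). ALDH1L2, near the bottom of the scale and fitted only without the minimum for testing, differed by -0.148 (adjusted p = 0.00749). Line and any batch between the lines cannot be told apart in this comparison.

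The ratio of mean FPKM between the lines was closer to 1 with PAA than in vehicle for every tested member but SHMT2. In HCT-116 over RKO, PSAT1 went from 2.13-fold in vehicle to 1.14-fold with PAA, PHGDH from 1.62-fold to 1.14-fold and PSPH from 2.42-fold to 1.30-fold. On the same ratio MTHFD2 went from 2.146-fold to 1.678-fold, MTHFD1L from 1.375-fold to 1.287-fold and SHMT1 from 1.294-fold to 0.926-fold. MTHFD1, as RKO over HCT-116, went from 1.081-fold to 1.024-fold. The SHMT2 ratio, RKO over HCT-116, went from 1.75-fold in vehicle to 2.56-fold with PAA. In order of level, PHGDH and PSAT1 ran from HCT-116 with PAA through RKO with PAA and HCT-116 with DMSO down to RKO with DMSO, without overlap between neighbouring groups. PSPH, MTHFD2 and MTHFD1L ran from HCT-116 with PAA through HCT-116 with DMSO and RKO with PAA to RKO with DMSO, again without overlap. SHMT1 ran from HCT-116 with DMSO through RKO with DMSO to both PAA groups, and MTHFD1 from RKO with DMSO through HCT-116 with DMSO to both PAA groups; for each of them the PAA groups of the lines overlapped. SHMT2 was highest in RKO with PAA, then in RKO with DMSO, and its HCT-116 groups overlapped.

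A ratio of the paired enzymes within a library does not depend on how that library was scaled. SHMT2 over SHMT1 was 5.66, 5.58 and 5.64 in HCT-116 with DMSO and 9.49, 9.52 and 10.0 with PAA. In RKO it was 12.7 and 12.9 with DMSO and 22.4, 22.8 and 23.7 with PAA. The groups did not overlap, and the mean ratio was 1.72-fold higher with PAA in HCT-116 and 1.80-fold higher in RKO. In HCT-116 the change came with a lower SHMT1 value and overlapping SHMT2 values, while in RKO SHMT2 was higher and SHMT1, on the deposited scale, lower.

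MTHFD2 over MTHFD1 was 4.15, 4.63 and 4.42 in HCT-116 with DMSO and 11.3, 11.6 and 11.7 with PAA. The same ratio in RKO was 2.02 and 1.76 with DMSO and 6.59, 6.68 and 6.86 with PAA. The mean ratio was 2.63-fold higher with PAA in HCT-116 and 3.55-fold higher in RKO, without overlap in either line. MTHFD1L over MTHFD1 went from a mean of 1.37 to 2.77 in HCT-116 and from 0.923 to 2.10 in RKO. Within serine synthesis, PSAT1 over PHGDH averaged 8.60 with DMSO and 8.58 with PAA in HCT-116, where the groups overlapped, and went from 6.54 to 8.58 in RKO, where they did not. With isoform sums the RKO groups overlapped too, at 1.27 to 1.33 with DMSO and 1.30 to 1.91 with PAA. These ratios are descriptions and carry no test.

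**Figure D3:**
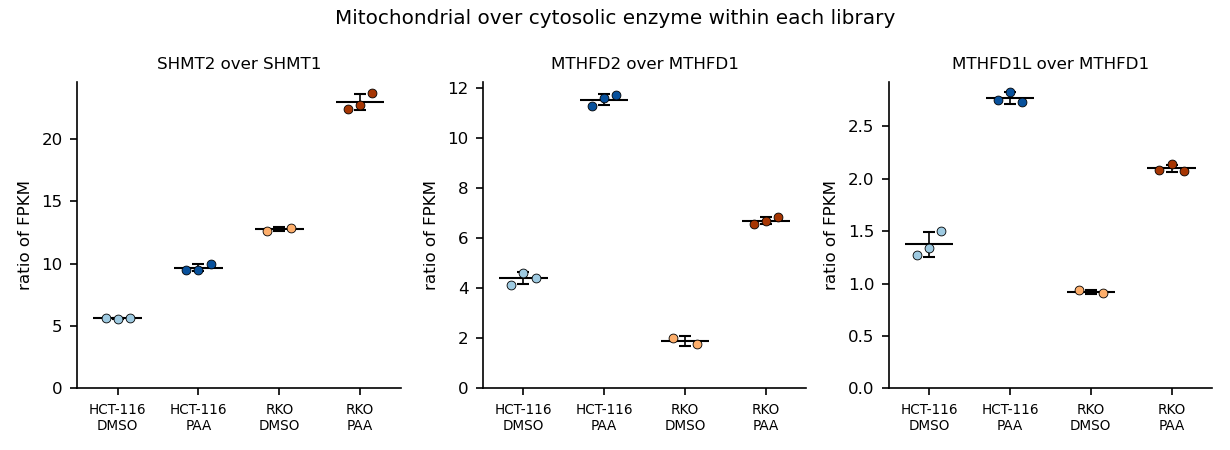
Ratio of the FPKM of a mitochondrial enzyme to that of its cytosolic partner in each library (vertical axes from 0; points are libraries, lines group means, bars SD). In each panel and line the PAA libraries lie above the DMSO libraries; SHMT2 over SHMT1 rises from a mean of 5.63 to 9.67 in HCT-116 and from 12.8 to 23.0 in RKO.

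The transcript table showed which isoforms carried these values. PSAT1-202 (2188 bases, coding) held 87.6% to 97.4% of summed PSAT1 isoform FPKM over all libraries, and MTHFD2-201 (4456 bases, coding) 82.5% to 93.4% of that of MTHFD2. SHMT1-203 (coding) held 50.5% to 64.9%. The leading SHMT2 isoform, SHMT2-229, is annotated as subject to nonsense-mediated decay. It was at 63.7 to 71.7 FPKM in HCT-116 with DMSO, 64.8 to 71.5 with PAA, 117 to 120 in RKO with DMSO and 172 to 179 with PAA, so it followed the gene's pattern. SHMT2-216, a short coding isoform, was listed at 0 in every DMSO library and in HCT-116 PAA replicate 1, and at 19.3 and 21.2 FPKM in the other HCT-116 PAA libraries and 32.9, 51.8 and 57.0 in those of RKO. The PHGDH isoform with the highest mean, PHGDH-233, is annotated as a retained intron and held 14.5% to 45.7% of PHGDH isoform FPKM. It led in every library but RKO PAA replicate 1, where PHGDH-203, annotated as a processed transcript, held 46.3%.

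Because a gene value here divides by the merged length of all exons, genes with long or intron-retaining isoforms are understated. Recomputed in that way from the isoforms, the PHGDH value was 0.998 to 1.03 times the deposited one. The isoform sum was 4.50 to 6.51 times the gene value for PHGDH and 4.14 to 4.90 times for SHMT1, against 1.01 to 1.05 times for PSAT1. With isoform sums PSAT1 over PHGDH was 1.84 in HCT-116 with DMSO, so the difference in level between these genes depended on the measure. SHMT2 over SHMT1 in isoform sums went from 3.33 to 6.03 in HCT-116 and from 7.76 to 15.0 in RKO. On this measure the SHMT1 change in RKO was -0.19 (adjusted p = 0.119) and that of MTHFD1 -0.57 (adjusted p = 0.173). For MTHFD1, 15 of the 16 isoforms annotated in GENCODE release 29 had deposited values. Those isoforms accounted for 0.374 to 0.788 of the gene value, so its sum is incomplete.

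Other genes of the pathway, taken with 3 transcription factors known to act on it, changed in both directions. Of 56 genes in 5 lists, 45 were tested. In HCT-116, 7 rose and 17 fell, against 21.7% higher and 25.3% lower over all genes tested, and in RKO 13 rose and 12 fell, against 25.7% and 14.3%. The lists' median log2 fold changes were -0.12 and -0.01, against -0.01 and 0.06 over all genes tested. Among 10 tested genes of serine and glycine handling, 3 rose and 4 fell in HCT-116, and 4 and 4 in RKO, with a median of 0.02 in both. The glycine transporter SLC6A9 went from a mean of 2.25 to 6.94 FPKM in HCT-116 (log2 1.29 ± 0.06, adjusted p = 5.28e-07) and from 0.248 to 3.66 in RKO (1.9 ± 0.07, adjusted p = 2.83e-07). With isoform sums the HCT-116 call was lost (0.74, adjusted p = 0.353). The neutral amino acid transporter SLC1A4, which carries serine, went from 1.45 to 3.91 FPKM in HCT-116 (1.00 ± 0.06, adjusted p = 1.65e-06) and from 3.75 to 9.74 in RKO (1.18 ± 0.07, adjusted p = 2.92e-06). SFXN1, the mitochondrial serine carrier that supplies SHMT2, fell by 0.52 ± 0.04 in HCT-116, from 20.7 to 14.1 FPKM (adjusted p = 6.55e-06), and by 0.49 ± 0.04 in RKO, from 12.2 to 8.38 (adjusted p = 3.36e-05). Its relative SFXN2 fell by 0.36 in RKO (adjusted p = 0.00687). That call was lost with FPKM totals made equal (-0.17, adjusted p = 0.132) and with isoform sums (-0.26, adjusted p = 0.426). It was also lost with the replicate number as a block (-0.34, adjusted p = 0.0644). GCSH, a carrier protein of the glycine cleavage system, fell by 0.64 in HCT-116 (adjusted p = 0.00741) and was at 3.72 FPKM with DMSO and 3.39 with PAA in RKO, with overlapping groups.

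In the list of folate uptake and other folate enzymes, 12 were tested. In HCT-116, 0 rose and 4 fell, against 21.7% higher and 25.3% lower over all genes tested. In RKO, 2 rose and 3 fell, against 25.7% and 14.3%. The medians were -0.1 and -0.17. At an unadjusted p under 0.05 (limma), 1 of the 12 was higher in HCT-116, against 3440 of all 13881 genes tested. TYMS, which makes thymidylate from the SHMT product, fell by 1.09 ± 0.13 in HCT-116, from 78.4 to 36.1 FPKM (adjusted p = 0.000113), and by 1.03 ± 0.14 in RKO, from 44.6 to 21.6 (adjusted p = 0.000475).

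Of 8 tested genes of the methionine cycle and transsulfuration, 1 rose and 3 fell in HCT-116 (over all genes tested, 21.7% rose and 25.3% fell). In RKO, 3 rose and 0 fell (25.7% and 14.3%). The medians were -0.16 and 0.05. At an unadjusted p under 0.05 (limma), 0 of the 8 were lower in RKO, against 2405 of all 13881 genes tested. CTH, which releases cysteine from cystathionine, rose by 0.74 ± 0.09 in HCT-116, from 3.19 to 6.0 FPKM (adjusted p = 0.000188), and by 2.33 ± 0.10 in RKO, from 1.33 to 10.8 (adjusted p = 8.01e-07). CBS, the enzyme before it, was at most 0.0293 FPKM in any library. AHCY, which hydrolyses adenosylhomocysteine, fell by 0.36 ± 0.04 in HCT-116, from 106 to 82.8 FPKM (adjusted p = 7.27e-05), and rose by 0.27 ± 0.04 in RKO, from 57.2 to 69.0 (adjusted p = 0.0012). AHCYL1, related to AHCY, fell by 0.26 in HCT-116 (adjusted p = 0.0124). That call was lost with FPKM totals made equal (-0.15, adjusted p = 0.16) and with isoform sums (-0.036, adjusted p = 0.738).

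Of 12 tested genes of purine synthesis, which consumes formyl-folate, 2 rose and 6 fell in HCT-116 (over all genes tested, 21.7% rose and 25.3% fell) and 2 rose and 5 fell in RKO (25.7% and 14.3%), with medians of -0.19 and -0.13. PRPS2, which makes the ribose donor, fell by 0.84 in HCT-116 (adjusted p = 0.00166) and by 0.67 in RKO (adjusted p = 0.0123), a call lost without RKO DMSO replicate 3 (-0.45, adjusted p = 0.116) and with FPKM totals made equal (-0.40, adjusted p = 0.07). GMPS, the last step to GMP, fell by 0.46 in HCT-116 (adjusted p = 8.41e-06). GART, which uses formyl-folate, rose by 0.30 in HCT-116 (adjusted p = 0.00152), and IMPDH2, which leads towards GMP, rose by 0.23 in HCT-116 (adjusted p = 0.00945) and by 0.33 in RKO (adjusted p = 0.00366). ADSL rose by 0.16 in RKO (adjusted p = 0.0296), and PAICS fell by 0.82 (adjusted p = 0.0482); both calls were lost under several alternatives, among them leaving out RKO DMSO replicate 2 (ADSL 0.12, adjusted p = 0.189; PAICS -0.80, adjusted p = 0.163).

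**Figure D4:**
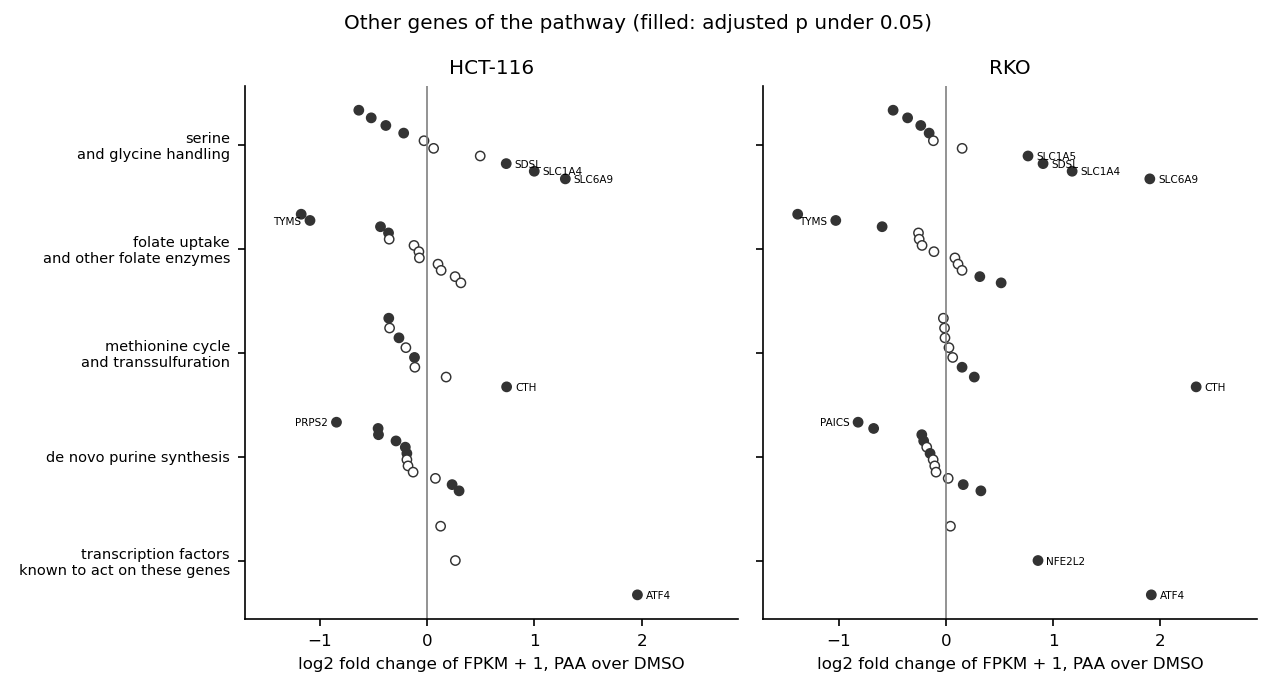
PAA effect (horizontal axis, log2 fold change of FPKM + 1) on the 45 tested genes of the 5 pathway lists in HCT-116 and RKO, 1 point per gene, filled where the adjusted p was under 0.05 and with most genes changed by more than 0.7 named. ATF4, SLC6A9 and SLC1A4 lie to the right in both lines, TYMS to the left in both, and CTH lies farthest right in RKO at 2.33.

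Among the transcription factors, ATF4 was at 49.2, 40.4 and 41.3 FPKM in HCT-116 with DMSO and at 257, 136 and 146 with PAA. RKO libraries held 22.3 and 27.4 FPKM with DMSO and 91.5, 109.6 and 88.3 with PAA. The groups did not overlap, and it rose by 1.96 ± 0.22 in HCT-116 (adjusted p = 9.25e-05) and 1.92 ± 0.25 in RKO (adjusted p = 0.000318). The isoform sums of ATF4 did not show this: the change was -2.09 in HCT-116 (adjusted p = 0.13) and 0.68 in RKO (adjusted p = 0.718). Such sums leave out transcripts absent from GENCODE release 29, and whether this affects ATF4 was not tested. MYC varied widely between replicates, from 3.69 to 23.2 FPKM in HCT-116 with PAA and from 7.77 to 42.0 in RKO with DMSO, and did not pass in either line (adjusted p = 0.936 and 0.995). NFE2L2 rose by 0.86 in RKO (adjusted p = 0.0371). That call was lost without RKO DMSO replicate 2, where the difference was 0.27 (adjusted p = 0.242), and with other libraries left out. With all libraries kept it was lost under several alternatives, among them median-of-ratios factors (0.77, adjusted p = 0.0605) and quantile normalization (0.76, adjusted p = 0.0598). In HCT-116 the NFE2L2 difference was 0.26 (adjusted p = 0.429). Of the RKO DMSO libraries, replicate 2 held 3.40 FPKM of NFE2L2 and replicate 3 held 8.90.

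The genes whose levels tracked a member most closely were ranked by Pearson's r of log2(FPKM + 1) over the 11 libraries, a description in which line and treatment are shared by all points. For PSAT1 the closest were SLC7A11 (r = 0.992), the cystine transporter, then YOD1 (0.987), a deubiquitinase, and DNAL4 (0.983), a dynein light chain. SLC7A11 averaged 15.7 FPKM in HCT-116 with DMSO, 64.3 with PAA, 2.08 in RKO with DMSO and 34.7 with PAA; its means were in the same order of groups as those of PSAT1. For SHMT2 they were ATG2A (0.999), a lipid transfer protein of autophagy, PDE4D (0.998), a cyclic AMP phosphodiesterase, and TM4SF19-AS1 (0.997), an antisense RNA whose reads cannot be told from its partner's without strand. For SHMT1 they were URB1 (0.992), a ribosome biogenesis factor, LRRC45 (0.991) and CAD (0.987), which starts pyrimidine synthesis. Of 12941 genes compared, 57 exceeded an r of 0.95 with PSAT1, 857 with SHMT2 and 62 with SHMT1.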

How the data were processed

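FPKM values of 60612 genes and 229420 transcripts were deposited by the authors, in tables whose headers name that unit. Cutadapt 1.9, FastQC and the build GRCh38 appear in the submitters' processing notes; no aligner, quantifier, annotation release or use of strand is given in the sources used here. The tables' placeholder for no signal, 0.0001, was set to 0. Symbols were found for 60401 gene identifiers, and coordinates and isoform types come from GENCODE release 29. Isoform sums used only the transcripts found in that release, 205306 of 229420 (89.5%), so they can be incomplete for a gene. Only 20.0% to 24.1% of low values per library were whole multiples of the value of 1 fragment (within 0.02 fragments), so reads could not be recovered and counting intervals are not given.

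Values were analysed as log2(FPKM + 1) with limma 3.58.1 in R 4.3.3. The fit used 4 group means and all 11 libraries, over the 13881 genes that reached 1 FPKM in 2 or more libraries. Tests were two-sided and moderated (with limma's mean-variance trend), with Benjamini-Hochberg adjustment and a threshold of 0.05. They covered the effect of PAA in each line, the difference of these effects (RKO minus HCT-116) and the vehicle difference. The procedure was tested on simulated data for the PAA effect in HCT-116 only, so the other comparisons were not checked in that way. Alternatives changed the pseudocount, the filter, the scaling, the gene measure, the model or the libraries used. The members and gene lists were chosen with earlier results of these data known, so they support nothing by themselves. Named pathway genes are, per list and line, up to 2 higher and 2 lower calls with the largest fold change and no overlap of groups, and all 3 transcription factors; some genes under this rule are not reported here. CBS and SMCR8 were named after their values were seen. Figures were drawn with matplotlib 3.10.9.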

Additional observations from a re-analysis of the deposited data

Results flagged for a closer look

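The difference of PAA effects between the lines was tested for 26 named genes and passed at an adjusted p under 0.05 (limma) for 12 of them. These genes were chosen with their values in view, so that share supports nothing by itself. In 11 of the 12 the effect in RKO was the higher on the log2 scale. Over all genes tested 31.0% differed, and 68.8% of those calls were higher in RKO (54% with median-of-ratios factors). The 6 members were PSAT1 (0.89), PSPH (0.78), SHMT2 (0.54), PHGDH (0.44), SHMT1 (0.41) and MTHFD2 (0.34). SHMT2 differed in that its rise passed in RKO only, and SHMT1 in that it fell less in RKO.

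The other 6 were CTH (1.59, adjusted p = 6.25e-05), AHCY (0.62, adjusted p = 8.52e-05), SLC6A9 (0.61, adjusted p = 0.00137), ADSL (0.35, adjusted p = 0.0042), GMPS (0.31, adjusted p = 0.00228) and GART (-0.28, adjusted p = 0.0283). AHCY and ADSL moved in opposite directions in the lines: AHCY was -0.36 in HCT-116 and 0.27 in RKO, and ADSL was -0.19 and 0.16. For ADSL this did not hold under all alternatives: in HCT-116 it was 0.16 with isoform sums and lost its call with FPKM totals made equal (-0.09, adjusted p = 0.141), and its RKO call was lost under several, among them leaving out RKO DMSO replicate 2 (0.12, adjusted p = 0.189). Groups held at most 3 libraries, and no outlier test was made.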

How the results depend on the processing

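Of 664 values of the 8 tested members under the alternatives, 644 kept their direction and their side of the threshold. Where the value was called in either fit, the sign changed for SHMT1 (a log2 change of 0.014), GMPS (0.12) and AHCYL1 (0.25, adjusted p = 0.0428) in RKO with FPKM totals made equal, and for ADSL (0.16) and ATF4 (-2.09) in HCT-116 with isoform sums; for isoform sums the cause was not tested. The sign also changed where neither fit made a call. With equal totals this held for GCSH in RKO (0.11) and the MTHFD1 difference between lines (0.083). With equal nuclear totals it held for SHMT2 in HCT-116 (-0.033), GART in RKO (-0.0051) and MTHFD1 in vehicle (-0.0033). Median-of-ratios factors gave -0.074 for GART and -0.051 for MYC in RKO and -0.0070 for the MTHFD1L difference, and quantile normalization gave -0.0047 for GART and -0.012 for MYC in RKO. With isoform sums MYC was -0.33 in HCT-116 and -0.074 in RKO, AHCYL1 in RKO 0.036 and the MTHFD1 difference 0.33. With the replicate block, MYC in RKO was -0.91 and GCSH 0.0049. With 1 library left out at a time, values ranged across 0 for MYC in HCT-116 (-0.66 to 0.53) and RKO (-1.1 to 1.19), for PAICS in HCT-116 (-0.31 to 0.088), and in RKO for AHCYL1 (-0.085 to 0.038), GART (-0.041 to 0.085) and GCSH (-0.19 to 0.0049). Equal totals moved the RKO median of all genes from 0.06 to 0.28 and that of the difference between lines from 0.08 to 0.21. The share of calls that were higher was 46.2% in HCT-116 (61.3% with equal totals), 64.3% in RKO (90.4% with equal totals, 49.4% with median-of-ratios factors, 50.1% with quantile normalization) and 68.8% for the difference (86%, 54% and 53.4%). Under each of these scalings 6 members differed between the lines, all higher in RKO.

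Leaving out 1 library at a time gave 6 to 7 called members in HCT-116, 8 in RKO, 6 for the difference and 7 to 8 in vehicle; over all genes the counts ranged from 5955 to 6482, 4217 to 5535, 3413 to 4011 and 7900 to 8899. In vehicle, the MTHFD1 difference passed without HCT-116 DMSO replicate 1 (0.13, adjusted p = 0.0424) and without HCT-116 PAA replicate 2 (0.11, adjusted p = 0.0471). It also passed with the replicate number as a block (0.13, adjusted p = 0.0296). The groups share replicate numbers, and the deviations of same-numbered libraries from their group means had r from -0.14 to 0.07. Among PAA libraries with a same-numbered DMSO library in their line, only HCT-116 replicate 1 correlated best with its own number. Deviations from means of 2 or 3 libraries are tied to one another, so these values cannot decide whether the numbers pair the samples. With the replicate number as a block the difference between lines was called in 2739 genes in place of 4307, and the adjusted p was 0.0739 for PHGDH and 0.0797 for MTHFD2; SHMT1 in RKO was at -0.24 (adjusted p = 0.0601). ALDH1L2 was under 0.2 FPKM in every library and did not reach the minimum for testing.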
